A study of Mus musculus with 24 samples.

Results

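The cluster that runs from miR-379 to miR-410 is a run of microRNA (miRNA) genes in the distal portion of the imprinted Dlk1-Dio3 region of mouse chromosome 12. Its members were taken as all mouse and rat assays, both arms included, whose miRNA number belongs to the cluster, which gave 50 of the 584 miRNA assays measured. They cover 31 hairpins, with 43 assays named for mouse and 7 for rat, 36 on card A and 14 on card B. Of the miRNAs in the cluster, miR-412 and miR-541 had no assay on these cards.

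The miRNAs of the Dlk1-Dio3 region are transcribed from the maternally inherited chromosome, within long noncoding transcripts that start near Meg3 and run on through Rian and Mirg. Each hairpin is cut from the transcript and then into short mature strands, called the 5p and 3p arms, of which the less abundant was formerly marked with an asterisk. A mature strand pairs with target mRNAs mainly through its seed, bases 2 to 8 from its 5′ end. The cluster is best known from the brain, and miRNAs of the region have also been reported as abundant in muscle stem cells, the resident stem cells that lie along the muscle fibre and divide after injury.

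The samples were muscle stem cells of male C57BL/6 mice aged 8 weeks, quiescent at 0 h or activated and harvested 36, 60 or 72 h after injury. The labels name no transgene and no drug treatment, and how the cells were isolated or how many mice were pooled is not given in the sources used here. Total RNA was measured by real-time PCR on TaqMan rodent cards of type A and B, with 3 technical replicates per group and card and 24 arrays in all. The p-values below therefore measure technical spread, and differences from mouse to mouse are not part of them.

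The sequences of the members that the results turn on follow, as mature mouse strands from RefSeq (GRCm38.p6), 5′ to 3′, with the seed in capitals. They show how far the families of the cluster share a seed and where near-identical strands differ. Rat assays were set beside the mouse strand of the same number and arm.
miR-379-5p: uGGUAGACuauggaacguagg
miR-411-5p: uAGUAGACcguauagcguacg
miR-379-3p: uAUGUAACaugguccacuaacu
miR-411-3p: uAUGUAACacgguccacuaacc
miR-329-3p: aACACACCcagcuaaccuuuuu
miR-494-3p: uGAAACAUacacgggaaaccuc
miR-543-3p: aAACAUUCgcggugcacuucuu
miR-495-3p: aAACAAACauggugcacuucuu
miR-667-3p: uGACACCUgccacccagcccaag
miR-376c-5p: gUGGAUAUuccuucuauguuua
miR-376b-5p: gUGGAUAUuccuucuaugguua
miR-376b-3p: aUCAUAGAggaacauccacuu
miR-376a-3p: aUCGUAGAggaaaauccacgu
miR-300-3p: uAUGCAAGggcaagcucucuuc
miR-381-3p: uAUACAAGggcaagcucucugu
miR-382-5p: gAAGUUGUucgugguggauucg
miR-134-5p: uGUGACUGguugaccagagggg
miR-485-3p: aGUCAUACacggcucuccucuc
miR-410-3p: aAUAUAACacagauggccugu

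Sequences were found for 47 of the 50 assays, which stand for 41 mature strands with 39 distinct seeds. Only 2 of these seeds were shared, AUGUAAC by the 3p strands of miR-379 and miR-411, and UGGAUAU by the 5p strands of miR-376c and miR-376b. Counting from the 5′ end, miR-379-3p and miR-411-3p differ by U10C and U22C, and miR-376c-5p and miR-376b-5p differ by U19G alone. miR-376b-3p and miR-376a-3p differ by A4G, C13A and U20G, the first of these inside the seed. The pair of miR-300-3p and miR-381-3p differs by G4A, U21G and C22U. No mature sequence was at hand for miR-376c-3p, miR-487b-3p and miR-485-5p. The hairpins span 34.7 kb of the plus strand, from Mir379 at chr12:109709060-109709125 to Mir410 at chr12:109743715-109743795 (GRCm38.p6). Of the 31 hairpins, 7 lie within the annotated span of the noncoding gene Mirg, and the others lie upstream of it.

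Levels are given relative to U6 RNA, as the mean threshold cycle (Ct) of U6 on an array minus that of the assay on it. This is a log2 scale, and a higher number means more RNA. Levels are compared between arrays for the same assay only, since assays can differ in efficiency. An assay counted as detected on an array where its Ct was below 35 in every spot. By that measure 15 members were detected on all 12 arrays of their card, 12 on some and 23 on none. The 23 undetected members made up 46% of the cluster's assays, against 37.5% undetected among all assays, and 21 of them had no Ct in any spot. They were miR-299*, miR-380-3p, miR-323-3p, the mouse assay of miR-758, miR-679, rno-miR-543, miR-376c*, miR-654-5p, miR-300, miR-300*, miR-487b, miR-539, both assays of miR-382*, miR-668, miR-485, miR-453, miR-154, both assays of miR-377, both assays of miR-409-5p and miR-369-3p. Detection in 3 of 3 replicates held for 24 members in the quiescent group, then for 22 at 36 h and for 16 members both at 60 and at 72 h. Over all assays those numbers were 259, 314, 271 and 264. The median SD of a member's level over 3 replicates was 0.19.

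**Figure D1:**
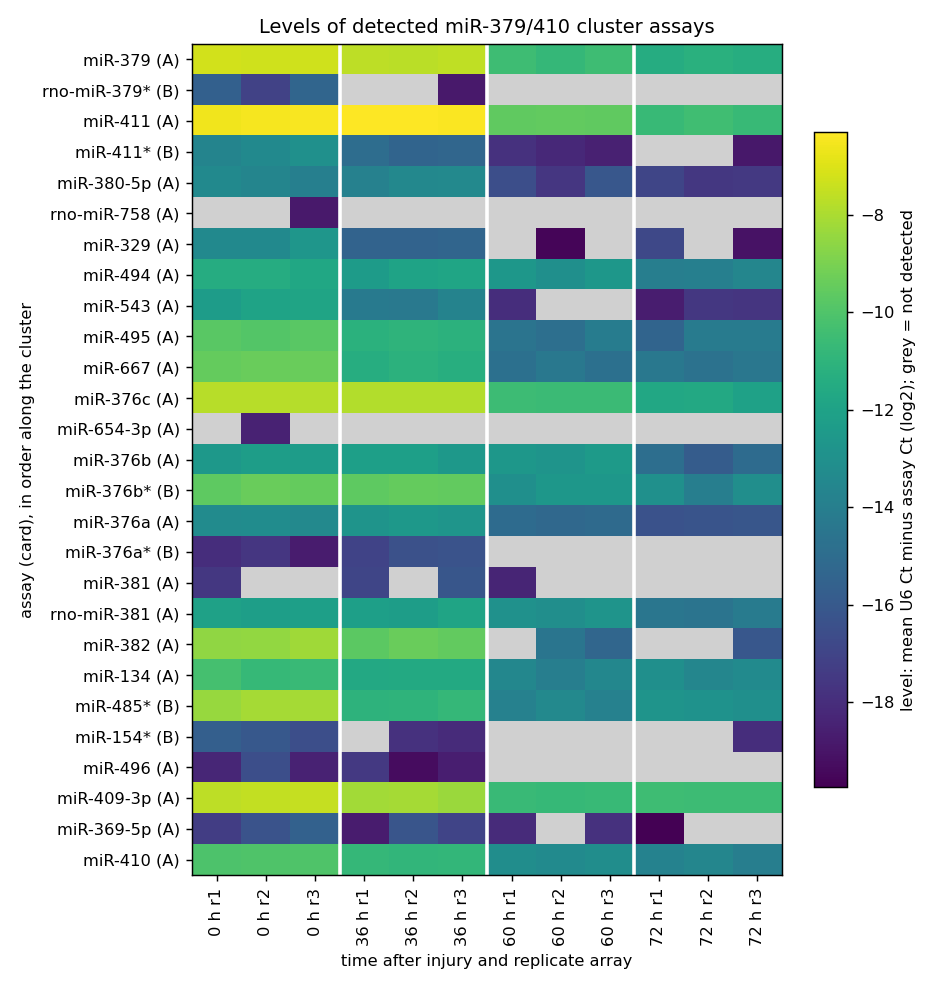
Level of each member detected on at least 1 array (rows, ordered along the cluster, card in brackets) on each of the 12 arrays of its card (columns). Colour is mean U6 Ct minus assay Ct on a log2 scale and grey marks no detection; the grey fields lie mainly at 60 and 72 h, where 16 members were detected in 3 of 3 replicates.

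The comparison of each later time with 0 h asked how the cluster's miRNAs differ between quiescent and activated cells. An assay was tested where it was detected on at least 2 arrays of both groups, and was called changed at a limma adjusted p below 0.05 with at least a 2-fold difference. At 36 h, 9 of 23 tested members were lower (39.1%) and 1 was higher, against a background of 12.1% lower and 44.1% higher among all 272 tested assays. The median log2 change was -0.70 for the members and 0.82 for all tested assays. At 60 h, 15 of 18 tested members were lower and all 18 log2 values lay below 0, beside 36.4% lower and 28% higher among 250 assays, with medians of -3.14 and -0.37. At 72 h all 17 tested members were lower, beside 45.9% lower and 20.9% higher among 244 assays, with medians of -3.85 and -0.77, though with snoRNA202 in place of U6 the called members numbered 8 and 11 of the 17 lay below 0. These comparisons share the 0 h arrays. In bulk RNA, fewer cells that contain a miRNA and less of it per cell cannot be told apart.

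**Figure D2:**
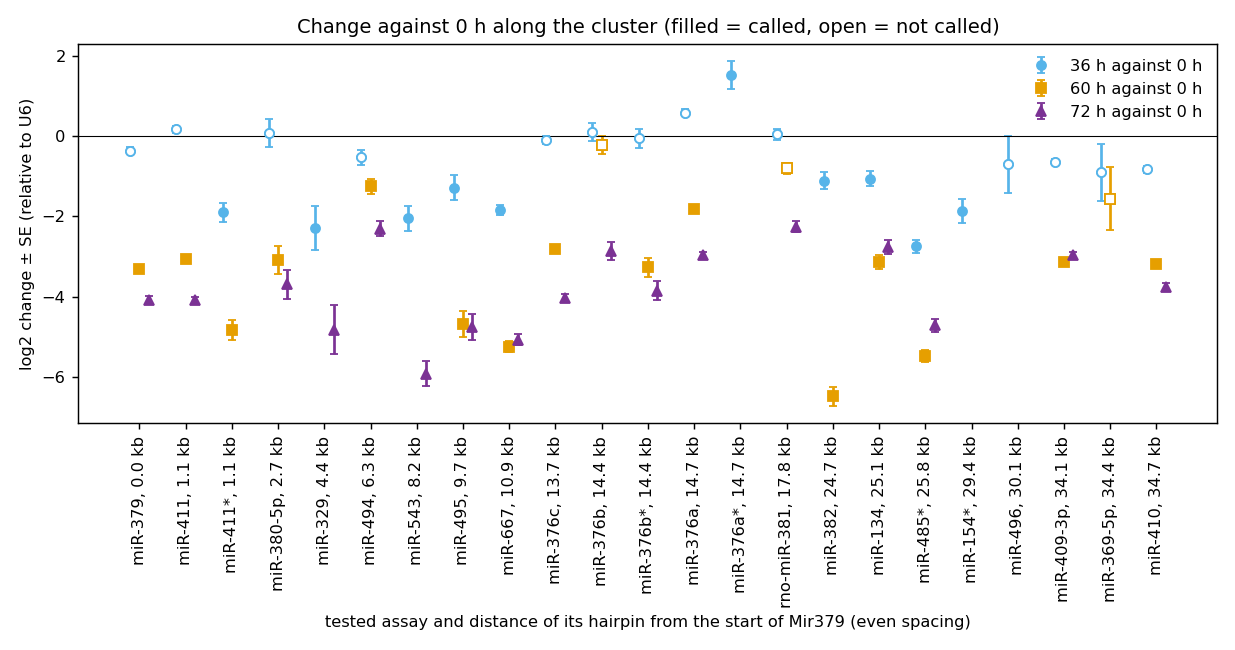
Log2 change relative to U6 with its standard error for each tested member at 36, 60 and 72 h against 0 h, in order along the cluster with the distance of the hairpin from the start of Mir379. Filled symbols passed the call and open symbols did not; at 72 h the 17 symbols lie between -5.92 and -2.26, while at 36 h they spread from -2.75 to 1.52.

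The hairpins at the upstream end hold miR-379 and miR-411, whose 5p seeds differ only at their opening base. miR-379 stood at -7.23, -7.30 and -7.29 on the 3 arrays at 0 h, at -7.66, -7.67 and -7.58 at 36 h, at -10.46, -10.81 and -10.48 at 60 h and at -11.41, -11.24 and -11.38 at 72 h. The 4 groups did not overlap, and the wide gap lay between 36 and 60 h. The log2 change against 0 h was -0.36 ± 0.09 at 36 h, below the minimum fold, and miR-379 was lower by 9.91-fold at 60 h and by 16.8-fold at 72 h (log2 -4.07 ± 0.09, SE, n = 3 per group, adjusted p = 3.6e-11).

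For miR-411 the levels were -6.61, -6.48 and -6.47 at 0 h, -6.34, -6.31 and -6.40 at 36 h, -9.61, -9.52 and -9.59 at 60 h and -10.68, -10.42 and -10.68 at 72 h. Its 36 h arrays lay just above the 0 h arrays, without a call (log2 0.17 ± 0.08, adjusted p = 0.077), and all later arrays lay far below both. It was 8.31-fold lower at 60 h and 16.8-fold lower at 72 h (log2 -4.07 ± 0.08, adjusted p = 9.2e-12). The opposite strand, miR-411*, took another course at 36 h on card B. Its levels were -13.65, -13.36 and -12.99 at 0 h, -14.96, -15.43 and -15.32 at 36 h, and -17.80, -18.18 and -18.53 at 60 h, and it was detected on a single array at 72 h, at -18.88. The groups were stepwise lower with no overlap, with log2 changes of -1.90 ± 0.24 at 36 h and -4.83 ± 0.24 at 60 h, both called. At 72 h its level at 0 h was 46.7-fold above the highest single spot. The difference between the arms of miR-411 was not tested, since they were measured on different cards.

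The opposite strand of miR-379, measured by the rat assay, was seen at 0 h at -15.62, -17.11 and -15.38, on 1 array at 36 h (-18.81) and on none later. Its mean 0 h level was at least 11.1-fold above the detection limit at 60 h and at least 10.3-fold above it at 72 h. Between these hairpins and miR-494 lie miR-299, miR-380, miR-323, miR-758 and miR-329. miR-380-5p ranged from -13.95 to -13.34 at 0 h, from -13.83 to -13.44 at 36 h, from -17.60 to -16.10 at 60 h and from -17.58 to -16.93 at 72 h, so that the early and the late arrays did not overlap. Its log2 change was 0.07 ± 0.36 at 36 h, not a call, and -3.69 ± 0.36 at 72 h, a call. The rat assay of miR-758 was detected on 1 array at 0 h only, at -18.82.

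In 1 stretch of the cluster, which also holds miR-494 and miR-679, the 4 assays miR-329, miR-543, miR-495 and miR-667 were called lower already at 36 h. Outside this stretch miR-411*, miR-382, miR-134, miR-485* and miR-154* were also called lower at 36 h. With snoRNA202 as normalizer the 36 h calls of miR-329 (log2 -1.40), miR-495 (-0.40) and miR-667 (-0.96) were lost. miR-329 read -13.35, -13.36 and -12.70 at 0 h, -15.47, -15.45 and -15.34 at 36 h, -19.53 on the only array with detection at 60 h, and -16.84 and -19.08 on the 2 arrays with detection at 72 h. It was 4.86-fold lower at 36 h (log2 -2.28 ± 0.54, not a call with a detection limit of Ct 40, adjusted p = 0.067) and 28.3-fold lower at 72 h (-4.82 ± 0.61, 2 arrays at 72 h), with replicates at 72 h that lay far apart. At 60 h its 0 h level was 84.1-fold above the highest spot.

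miR-543 gave -12.33, -11.93 and -11.90 at 0 h and -14.25, -14.30 and -13.75 at 36 h. At 60 h it was detected on 1 array, at -18.00, and at 72 h it stood at -18.68, -17.58 and -17.64. The 36 h arrays thus lay between the 0 h and the late arrays without overlap. The log2 change was -2.05 ± 0.32 at 36 h and -5.92 ± 0.32 at 72 h, which is 60.3-fold lower (adjusted p = 4.2e-07) and the lowest value among the 17 members tested at 72 h. The rat assay of miR-543 had no detection on any array.

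miR-495 stood at -9.76, -9.90 and -9.77 at 0 h, at -11.18, -10.99 and -11.11 at 36 h, at -14.55, -14.82 and -14.08 at 60 h and at -15.40, -14.16 and -14.12 at 72 h. The 60 and 72 h arrays overlapped with each other and with no earlier array. Against 0 h its log2 change was -1.28 ± 0.32 at 36 h, and it reached -4.68 ± 0.32 at 60 h and -4.75 ± 0.32 at 72 h, all called. For miR-667 the levels were -9.50, -9.38 and -9.36 at 0 h, -11.35, -11.10 and -11.31 at 36 h, -14.81, -14.37 and -14.78 at 60 h and -14.34, -14.68 and -14.42 at 72 h. Its 60 and 72 h arrays overlapped as well, and it was 3.58-fold lower at 36 h, 37.8-fold at 60 h and 33.6-fold at 72 h (log2 -5.07 ± 0.13, adjusted p = 9.4e-11). Within this stretch, miR-494, whose hairpin lies between those of miR-329 and miR-543, changed less. Its levels were -11.42, -11.42 and -11.72 at 0 h, -12.38, -11.95 and -11.82 at 36 h, -12.61, -13.07 and -12.62 at 60 h and -13.99, -13.92 and -13.59 at 72 h. Each group lay below the one before it, with log2 changes of -0.53 ± 0.19 at 36 h, not a call, -1.25 ± 0.19 at 60 h and -2.31 ± 0.19 at 72 h.

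**Figure D3:**
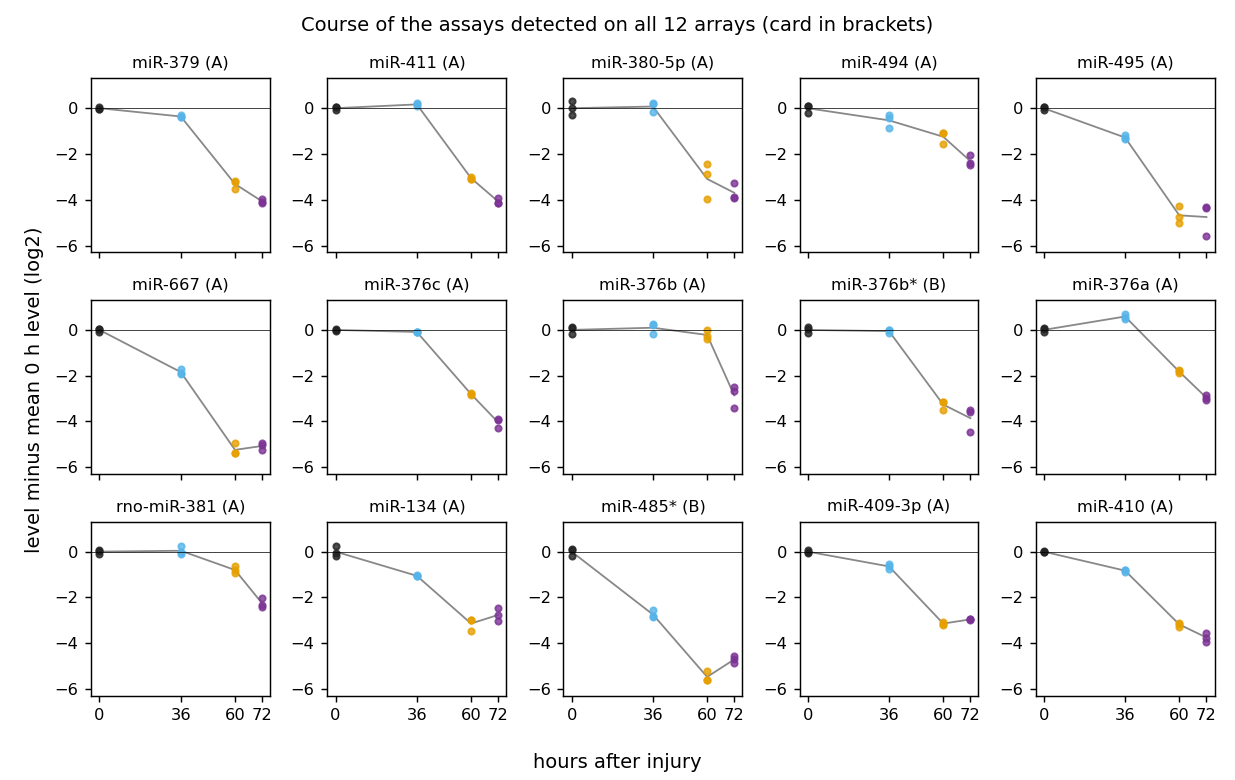
Level minus the mean 0 h level (log2, relative to U6) against hours after injury for the 15 members detected on all 12 arrays of their card; points are arrays and lines join group means. For 11 of the 15 the largest of the 3 steps, which last 36, 24 and 12 h, joins 36 and 60 h, while miR-376b stays near 0 until 60 h and lies at -2.86 at 72 h.

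The miR-376 family, whose hairpins are known substrates of A-to-I RNA editing, was called changed at 36 h on no tested assay but miR-376a*. miR-376c had -7.74, -7.75 and -7.80 at 0 h, -7.86, -7.86 and -7.84 at 36 h, -10.54, -10.60 and -10.56 at 60 h and -11.69, -11.65 and -12.07 at 72 h. The 0 and 36 h arrays differed by a log2 of -0.09 ± 0.10, which was not a call, and at 72 h miR-376c was 16.4-fold lower (log2 -4.04 ± 0.10, adjusted p = 4.8e-11). miR-376a, at -13.41 to -13.22 at 0 h, lay above that range at 36 h (-12.81 to -12.58) without reaching the minimum fold, and was 3.55-fold lower at 60 h and 7.79-fold lower at 72 h. Its opposite strand, miR-376a*, was the only member called higher in any comparison relative to U6. It gave -17.99, -17.61 and -18.70 at 0 h and -17.05, -16.41 and -16.28 at 36 h, with no detection at 60 or 72 h. The 36 h arrays lay above the 0 h arrays (log2 1.52 ± 0.34, adjusted p = 0.0057), at levels near the detection limit, and this call was lost with the global mean (0.74) or Y1 RNA (0.49) as normalizer. Its 36 h level was at least 7.65-fold above the limit at 60 h.

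The arms of miR-376b parted at 60 h. The 3p assay, miR-376b, read -12.58, -12.27 and -12.30 at 0 h, -12.13, -12.17 and -12.55 at 36 h, -12.64, -12.76 and -12.41 at 60 h, and -14.88, -15.81 and -15.04 at 72 h. The arrays of 0, 36 and 60 h overlapped, and those of 72 h lay below all of them. Its log2 change was -0.22 ± 0.23 at 60 h (adjusted p = 0.38) and -2.86 ± 0.23 at 72 h (adjusted p = 8.7e-07). The 5p assay, miR-376b*, stood at -9.65, -9.40 and -9.49 at 0 h, at -9.66, -9.51 and -9.53 at 36 h, at -13.03, -12.64 and -12.65 at 60 h and at -13.01, -13.99 and -13.10 at 72 h. Here the 60 h arrays already lay with the 72 h arrays, at 9.59-fold below 0 h (log2 -3.26 ± 0.24, adjusted p = 1.8e-07). The arms were measured on different cards, and the difference between them was not tested. miR-376b* was detected on all 12 arrays, whereas the assay for miR-376c*, whose strand differs from it by U19G alone, was detected on none.

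Downstream of the miR-376 hairpins lie miR-300 and miR-381. The rat assay of miR-381 gave -12.07, -12.24 and -12.13 at 0 h, -12.16, -12.27 and -11.89 at 36 h, -12.96, -13.09 and -12.79 at 60 h and -14.49, -14.57 and -14.15 at 72 h. The 0 and 36 h arrays overlapped, and the later groups were stepwise lower, with log2 changes of -0.80 ± 0.13 at 60 h, below the minimum fold, and -2.26 ± 0.13 at 72 h, a call. The mouse assay of the same miRNA did not give this course. It was detected on 4 arrays only, with Ct values from 31.1 to 33.8 there, while the rat assay had Ct values from 26.8 to 29.8 on all 12. Neither assay of miR-300, which is close to miR-381 in sequence, was detected on any array.

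Further downstream lies miR-382, which showed the largest fall at 60 h among the 18 tested members. It stood at -8.55, -8.47 and -8.24 at 0 h and at -9.67, -9.36 and -9.55 at 36 h, then at -14.50 and -15.30 on the 2 arrays with detection at 60 h, and at -16.11 on 1 array at 72 h. The log2 change was -1.11 ± 0.21 at 36 h and -6.48 ± 0.24 at 60 h, with 2 arrays at 60 h, which is 89.2-fold lower. Its 0 h level was 206-fold above the highest spot at 72 h. The arrays with detection had Ct values of 29.87 and 30.69 at 60 h and 31.13 at 72 h, well below the limit. The other arrays of both groups gave no Ct. These technical replicates thus disagreed, the late falls are uncertain, and the reason was not tested. The 36 h call of miR-382 was lost with snoRNA135 as normalizer (log2 -0.89) and with undetected values set to Ct 35, which keeps the undetected arrays in the fit (adjusted p = 0.48).

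miR-134, known in neurons as a repressor of the kinase Limk1, read -10.29, -10.73 and -10.63 at 0 h, -11.63, -11.58 and -11.60 at 36 h, -13.52, -14.01 and -13.53 at 60 h and -13.03, -13.58 and -13.33 at 72 h. The 60 and 72 h arrays overlapped and lay below the earlier ones. It was lower by a log2 of 1.06 at 36 h, a call, and the log2 change was -3.14 ± 0.18 at 60 h and -2.77 ± 0.18 at 72 h. The 36 h call was lost without the array of 0 h replicate 1 (log2 -0.93), and with snoRNA135 (-0.84) or snoRNA202 (-0.18) as normalizer. miR-485*, on card B, gave -8.40, -8.13 and -8.10 at 0 h, -11.07, -11.03 and -10.77 at 36 h, -13.83, -13.41 and -13.81 at 60 h and -12.79, -12.91 and -13.06 at 72 h. It had the largest fall at 36 h among the 23 tested members, 6.71-fold (log2 -2.75 ± 0.16, adjusted p = 4e-08), and its 72 h arrays lay above its 60 h arrays (log2 0.76 ± 0.16, below the minimum fold). At 72 h it was 26.1-fold below 0 h. The assay of the opposite strand, miR-485, was detected on no array.

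At the downstream end, miR-409-3p was 8.83-fold lower at 60 h and 7.78-fold lower at 72 h, with -7.62 to -7.49 at 0 h, -8.33 to -8.09 at 36 h, -10.74 to -10.64 at 60 h and -10.55 to -10.48 at 72 h. miR-410, the last hairpin, went from between -10.04 and -10.00 at 0 h to between -10.89 and -10.82 at 36 h, -13.30 and -13.14 at 60 h, and -13.99 and -13.56 at 72 h. Its 4 groups did not overlap, and it was 13.5-fold lower at 72 h (log2 -3.75 ± 0.10, adjusted p = 8.6e-11). The remaining 3 were weak signals, seen at 0 h in 3 of 3 replicates and nearly lost later. miR-154* stood at -15.68, -16.05 and -16.52 at 0 h, at -17.80 and -18.10 on 2 arrays at 36 h (log2 -1.87 ± 0.29, a call) and at -17.98 on 1 array at 72 h. It had 2 spots per array, and at 36 h these could lie far apart. On 36 h replicate 3 the mean Ct was 32.86 and the lower spot read 30.80. The lower spots at 0 h read 30.98 to 31.69, before U6 is taken into account. The 0 h level was only 2.09-fold above the highest single spot at 72 h. miR-496 gave -18.31, -16.54 and -18.45 at 0 h and -17.49, -19.31 and -18.62 at 36 h, with no detection later, and miR-369-5p gave -17.28, -16.30 and -15.59 at 0 h, -18.71, -16.20 and -16.99 at 36 h, -18.09 and -17.80 on 2 arrays at 60 h and -19.74 on 1 array at 72 h. The 0 and 36 h arrays of miR-496 and of miR-369-5p overlapped, with SDs from 0.85 to 1.28 over 3 replicates. Relative to U6, with a detection limit of Ct 35 and undetected values left out, neither was called in any tested comparison. With the global mean both were called lower at 36 h (log2 -2.20 for miR-369-5p, -1.99 for miR-496). miR-369-5p was also called lower at 60 h with a detection limit of Ct 40 (-2.76) or undetected values at Ct 35 (-2.12). The level of miR-496 at 0 h was at least 3.58-fold above the limit at 60 h and at least 4.34-fold above it at 72 h.

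In all, 7 members were detected in 3 of 3 replicates at 0 h and on at most 1 array at 72 h, and none the other way. This count was not made over all assays, so it has no background here. Detection in 3 of 3 replicates held for 259 of all assays at 0 h and for 264 at 72 h. The 7 members were rno-miR-379*, miR-411*, miR-376a*, miR-382, miR-154*, miR-496 and miR-369-5p. Of these miR-376a* lay near the limit already at 0 h, with Ct values from 33.28 to 34.37. Its 0 h level was at least 2.45-fold above the limit at 72 h. The 2 remaining members with any detection, miR-654-3p and rno-miR-758, were each seen on 1 array at 0 h.

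The later groups were also compared with one another. From 36 to 60 h, 14 of 18 tested members were lower and all 18 lay below 0, beside 49.5% lower and 5.38% higher among 279 assays, and the medians were -2.72 and -1.02. Among the tested members the 5 largest falls were those of miR-382 (log2 -5.37 ± 0.24, 2 arrays at 60 h), miR-667 (-3.40 ± 0.13), miR-495 (-3.40 ± 0.32), miR-411 (-3.22 ± 0.08) and miR-376b* (-3.21 ± 0.24). miR-329 and miR-543, detected on 1 array at 60 h and not tested there, had 36 h levels 17.3-fold and 14.9-fold above their highest single spot at 60 h. The members not called in this step were rno-miR-381, miR-494, miR-369-5p and miR-376b. From 60 to 72 h, 6 of 15 tested members were lower and 0 higher by limma with the minimum fold, beside 35.8% lower and 0.755% higher among 265 assays, with medians of -0.60 and -0.75. The lower 6 were miR-376b (log2 -2.64 ± 0.23), rno-miR-381 (-1.46 ± 0.13), miR-376c (-1.24 ± 0.10), miR-376a (-1.13 ± 0.09), miR-494 (-1.06 ± 0.19) and miR-411 (-1.02 ± 0.08). The calls of miR-411 and miR-494 lay close to the minimum fold, and each was lost without any 1 of 3 arrays of the 60 and 72 h groups, with log2 values from -0.99 to -0.98, which left 4 calls at the lowest. With another normalizer than U6, miR-376b was the 1 member called lower with snoRNA135 (log2 -2.11, beside 19.2% of all assays), snoRNA202 (-2.0, beside 14%) and the global mean (-1.76, beside 6.42%). With Y1 the 3 called lower were miR-376b (-2.21), rno-miR-381 (-1.02) and miR-376b* (-1.06), beside 29.1%. At an unadjusted p under 0.05 and no minimum fold, 2 were higher, miR-485* and miR-409-3p. Relative to U6 and across the 15 members detected on all arrays, the step from 36 to 60 h held a median of 71.5% of the change at 72 h, from 11% for miR-376b to 85.6% for miR-380-5p. The step with the largest fall relative to U6 was 36 to 60 h for 11 members, 60 to 72 h for miR-376b, miR-494 and rno-miR-381, and 0 to 36 h for miR-485*. The steps last 36, 24 and 12 h, and per hour the fall was steepest from 36 to 60 h for 12 members. This order depends on the normalizer. The step from 36 to 60 h was the largest for 13 members with snoRNA135, 11 with snoRNA202 and 10 with Y1, but for 4 with the global mean, where 10 members had their largest fall from 0 to 36 h. Among these were miR-410 (log2 -2.12 from 0 to 36 h and -0.90 from 36 to 60 h) and miR-409-3p (-1.94 and -1.05). Per hour, the fall from 36 to 60 h was the steepest for 12 members with snoRNA135, 11 with snoRNA202 and 11 with Y1. With the global mean it was the steepest for 7 members, and that from 0 to 36 h for 6. The median share of the 72 h change that fell between 36 and 60 h was 84.2% with snoRNA135, 60.2% with Y1 and 48.3% with the global mean.

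Members were also set against the mean of the 13 members detected on all arrays of card A, a scale that does not use U6 or any other control RNA. It was added after the data had been seen and covers card A only. At 36 h, miR-376a was above the member mean (log2 1.02 ± 0.09), and miR-329 (-1.84 ± 0.54), miR-543 (-1.61 ± 0.32) and miR-667 (-1.40 ± 0.18) were below it, while 59.3% of all 177 card A assays were above it and 5.65% below. At 60 h, miR-376b (2.53 ± 0.22), rno-miR-381 (1.95 ± 0.12) and miR-494 (1.5 ± 0.15) were above, and miR-382 (-3.71 ± 0.31), miR-667 (-2.49 ± 0.18) and miR-495 (-1.93 ± 0.29) below, beside 70.8% of 168 assays above and 7.74% below. At 72 h, rno-miR-381 (1.25 ± 0.12) and miR-494 (1.19 ± 0.15) were above, and miR-543 (-2.41 ± 0.32), miR-667 (-1.56 ± 0.18) and miR-495 (-1.25 ± 0.29) below, beside 69.9% of 166 assays above and 7.83% below. The remaining 10 of 15 tested members were within the minimum fold of the member mean or failed the adjusted p at 72 h. From 36 to 60 h, miR-376b (2.0 ± 0.22), miR-494 (1.60 ± 0.15) and rno-miR-381 (1.47 ± 0.12) moved above the member mean and miR-382 (-3.04 ± 0.31), miR-667 (-1.09 ± 0.18) and miR-495 (-1.09 ± 0.29) below it, beside 49.5% of 184 assays above and 10.3% below. From 60 to 72 h, miR-376b moved the other way (-1.88 ± 0.22) and miR-134 moved above (1.13 ± 0.15), beside 6.18% of 178 assays below and 7.3% above.

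**Figure D4:**
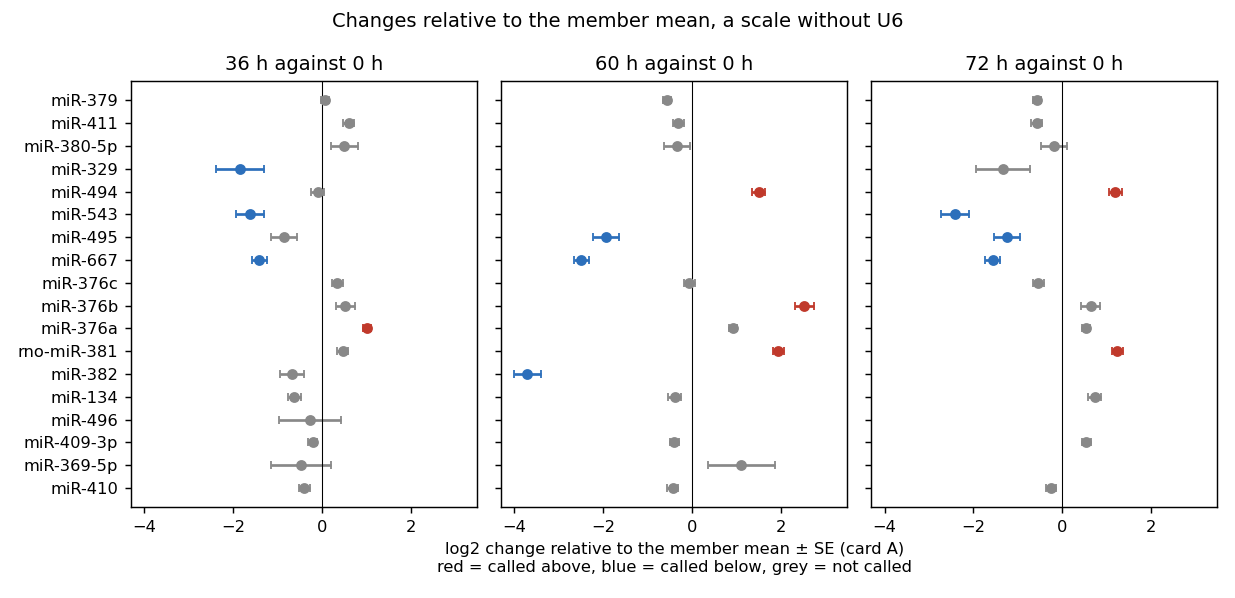
Log2 change of each tested card A member relative to the mean of the 13 members detected on all arrays, with its standard error, at 36, 60 and 72 h against 0 h. Red points were called above the member mean, blue points below, grey points neither; miR-376b, rno-miR-381 and miR-494 stand to the right at 60 h and miR-382, miR-667 and miR-495 to the left.

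The control RNAs did not keep a constant ratio to U6, so the counts of members depend on the control. Against U6 on card A, snoRNA202 fell by 3.05 (log2) from 0 to 72 h, snoRNA135 fell by 0.87 and Y1 fell by 0.32. On card B snoRNA202 fell by 2.61 and snoRNA135 fell by 0.35, while Y1 was higher by 0.72. With snoRNA202 as normalizer the median of all tested assays itself moved to 1.74, 2.08 and 2.04, and fewer members were lower. At 36 h these were miR-543 and miR-485*, with 4 members higher (miR-376a, miR-376a*, miR-376b* and miR-411), beside 2.21% lower and 66.2% higher among all assays. At 60 h 5 members were lower (miR-382, miR-485*, miR-667, miR-411* and miR-495) and 3 higher, beside 8% lower and 71.6% higher. At 72 h 8 were lower (miR-543, miR-485*, miR-667, miR-329, miR-495, miR-376b*, miR-411 and miR-379) and 0 higher, beside 9.84% lower and 68% higher. The 3 higher at 60 h on that scale were miR-376b, rno-miR-381 and miR-494, by log2 2.18, 1.60 and 1.16. At 72 h all 17 tested members were lower with U6, Y1, snoRNA135 and the global mean of the assays detected on every array, beside 50% of all assays with Y1, 34.8% with snoRNA135 and 32.4% with the global mean. At 72 h the members' median and that of all tested assays were -3.85 and -0.77 with U6, -3.71 and -1.04 with Y1, -3.17 and -0.17 with snoRNA135, -3.01 and -0.10 with the global mean and -0.99 and 2.04 with snoRNA202. A normalizer shifts all assays of a card alike, so the gap between these medians is largely fixed. It is 1 result shown on 5 scales and not 5 separate checks. At 36 h the count of lower members ran from 2 with snoRNA202 to 20 with the global mean, where 32.7% of all assays were lower.

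**Figure D5:**
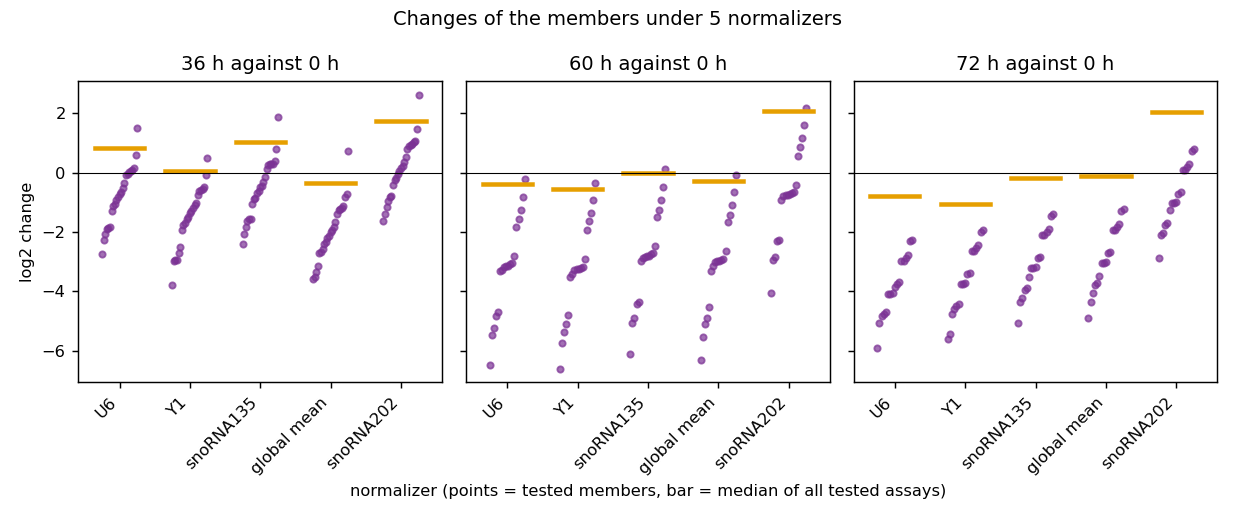
Log2 change of each tested member (points) and the median of all tested assays (bars) at 36, 60 and 72 h against 0 h under 5 normalizers. At 72 h the points lie below 0 with U6, Y1, snoRNA135 and the global mean, and on both sides of 0 with snoRNA202, where the bar is at 2.04.

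The other miRNAs of the Dlk1-Dio3 region, on 25 assays, were read from a separate list. At 36 h, 6 of 13 tested were lower and 1 higher, and at 60 and at 72 h 7 of 7 were lower, with medians of -0.82, -4.12 and -4.73. Of all tested assays 12.1%, 36.4% and 45.9% were lower at 36, 60 and 72 h, and 44.1% were higher at 36 h. Among the 7 tested at 72 h the largest falls were those of miR-434-3p (log2 -5.27 ± 0.05), miR-127 (-5.17 ± 0.07), miR-337-5p (-4.92 ± 0.18) and miR-136 (-4.73 ± 0.21). Assays detected at 0 h and on no array at 72 h could not be tested, and of these miR-433 had a 0 h level at least 1596-fold above the detection limit at 72 h, and miR-370, miR-431, miR-673-3p and rno-miR-136* levels at least 97.6-fold to 113-fold above it. With snoRNA202, 4 of the 7 were lower at 72 h, beside 9.84% of all tested assays.

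Marker miRNAs of other cells moved over the same times. The summed level of 6 leukocyte assays (5 detected at 0 h) lay between -5.38 and -5.34 at 0 h, -3.72 and -3.65 at 36 h, -6.57 and -6.44 at 60 h and -7.42 and -7.28 at 72 h. Its members did not move together: at 72 h miR-150 was 18.5-fold lower than at 0 h, while miR-142-3p was 48.7-fold and miR-223 14-fold higher. For 2 endothelial assays the sum went from between -4.52 and -4.44 to between -2.29 and -2.28, -6.28 and -6.19, and -6.42 and -6.40, and for 4 mesenchymal and smooth muscle assays from between -3.23 and -3.11 to between -2.76 and -2.70, -6.16 and -6.13, and -6.82 and -6.75. Such sums add assays that can differ in efficiency, and the assays with the highest levels weigh most. At 0 h the mesenchymal and smooth muscle sum was mostly miR-145 (mean level -3.41). At 36 h, 3 of these 4 assays were called higher, while miR-145 was not called (log2 -0.33). At 72 h miR-145 changed by -4.93 and miR-199a-3p by -0.86, the latter not called. The sum of 4 muscle assays on card A rose over the same groups, from between -9.80 and -9.66 to between -7.32 and -7.26, -6.50 and -6.35, and -5.83 and -5.64. Of 7 epithelial assays 4 were detected on no array, as was 1 of 2 neuronal assays, and the erythroid miR-451 was not detected at 0 h. The epithelial miR-203 was detected on all 12 arrays and was 7.83-fold lower at 72 h than at 0 h. The epithelial miR-200c and miR-205, the neuronal miR-9 and miR-451 were not detected at 0 h but were detected in 3 of 3 replicates at 36 h. For miR-451 this held at 60 h as well. miR-489, a miRNA reported as enriched in quiescent muscle stem cells, was lower on 2 of 2 assays at each later time. The part of these cell types in the changes of the cluster was not tested.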

How the data were processed

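Each array's file holds a Ct per spot, per the file headers, from real-time PCR of 40 cycles. The sources used here do not give the software or threshold behind the deposited Ct. The authors' tables combining all arrays were not used, since they name the last time point as a later day than the labels do. Members and lists were chosen with earlier results of these data known.

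The level was the mean Ct of the MammU6 spots of an array minus the assay's Ct, averaged over spots. Card type was read from the assay names. Undetected values (Ct of 35 or above, or no Ct, in any spot) were left out. The tests used limma (version 3.58.1, R 4.3.3), fitted to the 12 arrays of each card, with Benjamini-Hochberg adjustment over all tested assays of a comparison, cards A and B together. A call needed a 2-fold or larger difference besides an adjusted p under 0.05. For members detected in 3 replicates of 1 group and at most 1 of the other, a fold is a bound against Ct 35 ("at least") or is taken against the highest single spot of the other group. The fit was tested on simulated data. An array of card A detected 181 to 212 of 375 assays, one of card B 89 to 120 of 209. The arrays give no read depth, and the 3 arrays per group limit the precision.

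Old assay names were set to the 5p or 3p strand by hand. Every array value is given for the members with the 8 largest and 3 smallest changes at 72 h and the 5 largest falls from 36 to 60 h. The same holds for those detected in 3 replicates of 1 group and at most 1 of another. Others are given by range. Values given in full beyond that rule, for miR-376b, were chosen after they were seen. Replicate numbers did not pair the arrays: deviations from the group means of same-numbered arrays had an r above 0.1 in 9 of 36 pairs, from -0.43 to 0.49. Alternatives covered the normalizer (snoRNA202, snoRNA135, global mean, and Y1, which was added after the data were seen), detection limits of Ct 32 and 40, undetected values at Ct 35, assays detected on all arrays, no minimum fold, a mean-variance trend, a replicate block and leaving out each replicate. The scale of the member mean and the comparison of step sizes across normalizers were also added later; a member median, tried before the mean, was dropped because the middle assay differed between arrays.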

Additional observations from a re-analysis of the deposited data

How the results depend on the processing

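Relative to U6, the counts of lower members were 9, 15, 17, 14 and 6 at 36, 60 and 72 h against 0 h, at 60 against 36 h and at 72 against 60 h. By limma 1 was higher at 36 h and 0 in the other comparisons, and at an unadjusted p under 0.05 with no minimum fold 2 were higher at 36 h, 0 at 60 h, 0 at 72 h, 0 from 36 to 60 h and 2 from 60 to 72 h. Leaving out each replicate in turn gave 8 to 9, 14 to 15, 16 to 17, 13 to 14 and 4 to 6 lower, 1 to 1 higher at 36 h and 0 higher in each other comparison. It left 7 to 8 members detected in all replicates at 0 h and on at most 1 array at 72 h. The fit with a replicate block gave the same counts, 9, 15, 17, 14 and 6, and changed no call.

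The counts moved by over 1.5 times under these settings. The share of all tested assays is in brackets, and was not worked out for the settings of detection and minimum fold. Lower at 36 h were 14 with Y1 (25%), 20 with the global mean (32.7%), 2 with snoRNA202 (2.21%) and 4 among assays detected on all 12 arrays. Higher at 36 h were 0 with Y1 (27.6%), the global mean (21.7%), a detection limit of Ct 32 or detection on all arrays, 2 with no minimum fold and 4 with snoRNA202 (66.2%). With snoRNA202, 5 were lower (8%) and 3 higher (71.6%) at 60 h and 8 lower (9.84%) at 72 h. From 36 to 60 h, 1 was higher with the global mean (26.9%) and 1 with snoRNA202 (33.7%). From 60 to 72 h, 3 were lower with Y1 (29.1%) and 1 each with the global mean (6.42%), snoRNA135 (19.2%) and snoRNA202 (14%). In that step 4 were higher with the global mean (9.43%), 2 with no minimum fold and 1 with snoRNA202 (3.4%). The cause of these differences was not tested.

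Signs of log2 values, called or not, turned with the normalizer. With snoRNA202, 7 of 23 members turned above 0 at 36 h, miR-376b* furthest (1.05), 5 of 18 at 60 h, which were miR-369-5p (0.85), miR-376a (0.58), miR-376b (2.18), miR-494 (1.16) and rno-miR-381 (1.60), and 6 of 17 at 72 h, which were miR-134 (0.28), miR-376a (0.087), miR-376b (0.19), miR-409-3p (0.088), miR-494 (0.74) and rno-miR-381 (0.79). From 36 to 60 h, miR-376b, miR-494, rno-miR-381 and miR-369-5p turned above 0 under snoRNA202 and under the global mean, with miR-376b at 1.21 and 1.13. From 60 to 72 h, 3 of 15 turned above 0 with snoRNA202 and 4 with the global mean, none of them called. With the global mean the 36 h values of miR-376a (-0.71), miR-376b (-1.20), miR-380-5p (-1.22), miR-411 (-1.12) and rno-miR-381 (-1.25) turned below 0. With Y1 the 5 members above 0 at 36 h that were not miR-376a* turned below 0, miR-376b turned to 0.23 from 36 to 60 h and miR-495 to 0.36 from 60 to 72 h. With snoRNA135, miR-376b* (0.29) and miR-376c (0.13) turned at 36 h, miR-376b (0.12) at 60 h and miR-495 (0.45) from 60 to 72 h, none of them called, and 8 of 91 results lost their call. Members near Ct 35 have uncertain values. So has miR-382 at 60 and 72 h, where some replicates had Ct values of 29.87 to 31.13 and others gave no Ct.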

Other observations

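Among the 13 card A members detected on all arrays, the distance of the hairpin from Mir379 and the log2 change had a Spearman rho of -0.22 at 36 h, 0.10 at 60 h and 0.45 at 72 h. These points share arrays, normalizer and transcript, and the values are a description. miR-544, a miRNA of the Dlk1-Dio3 region outside the cluster's list, was higher at 36 h (log2 2.13 ± 0.42) and was not detected at 60 or 72 h. Its Ct values at 0 h, from 34.00 to 34.97, lay just under the detection limit.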
